A study of Mus musculus with 12 samples.

Results

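The mitotic progenitor wells are 264 of 2644 single-cell wells in which transcripts of late G2 and mitosis were most abundant. They come from 12 plates of sorted fetal liver LSK cells, which lack lineage markers, carry Sca-1 and Kit, and include haematopoietic stem cells and multipotent progenitors. A well entered the ranking with at least 5000 UMIs, the random barcodes that mark single mRNA molecules, outside the ERCC spike-in RNAs. The score of a well was the mean over 6 genes, Ccnb1, Cdc20, Plk1, Aurka, Cenpf and Cep55, of log2(1 + UMIs per 10000 UMIs). The 10% of wells with the highest score over all plates were called mitotic wells, and the remaining 2380 are called other wells. The lowest mitotic well scored 1.584 and the highest other well 1.5835, so the boundary lies inside a continuous range: 61 mitotic and 87 other wells scored within 0.1 of the lowest mitotic well. The median score was 1.80 in mitotic and 0.40 in other wells, and 429 wells scored 0. These scores chose the wells and are given as a description.

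The fetal livers were taken at embryonic day 18.5 from mice on a C57BL/6J background. By their labels 3 plates were wild type (WT), 3 were Rev1-/- (Rev1 knockout), 2 carried Pcna K164R on both alleles, and 4 combined both mutations (double mutant). REV1 is a translesion DNA polymerase, and the lysine changed in PCNA is the residue whose ubiquitination recruits such polymerases to stalled forks, so both mutations lie in DNA damage tolerance. The labels give 3 sort days, called sessions. WT plates were sorted in session 1 (replicate 1) and session 3 (replicates 2 and 3), Rev1 knockout plates in session 2 (replicate 1) and session 3 (replicates 2 and 3), and Pcna K164R plates in session 1 only. The double mutant had replicates 1 and 2 in session 1, replicate 3 in session 2 and replicate 4 in session 3. Replicate numbers only name plates, and the labels leave unsaid which plates, if any, share an animal. Each p-value therefore reflects only how plates vary, and part of that may be technical.

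Cells enter mitosis when cyclin B with CDK1 is activated by CDC25 phosphatases and when Aurora A and PLK1 drive centrosome maturation and spindle assembly. Chromosomes are then attached through kinetochores under the watch of the spindle checkpoint, and CDC20 with the anaphase-promoting complex (APC/C) destroys cyclin B and securin to start anaphase, after which CEP55 and the centralspindlin motors complete cytokinesis. The genes of this programme are transcribed together from G2 onwards, many through a short promoter element called the cell cycle genes homology region (CHR), often beside CCAAT boxes, whereas the DNA replication genes of G1/S are driven by E2F sites. In the fetal liver, stem and progenitor cells expand by division.

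Promoters of 4 genes of the score are shown: Plk1, Cdc20 and Cenpf hold both elements, and Ccnb1 holds CCAAT boxes alone. Each window runs from 250 bases before to 50 bases after the annotated gene start in RefSeq (build GRCm38.p6) and is printed 5′ to 3′ on the strand of the gene. Capitals mark matches to the CHR (TTTGAA, or TTCAAA on the other strand) and to the CCAAT box (CCAAT, or ATTGG on the other strand).
Plk1, chr7:122159185-122159484, plus strand: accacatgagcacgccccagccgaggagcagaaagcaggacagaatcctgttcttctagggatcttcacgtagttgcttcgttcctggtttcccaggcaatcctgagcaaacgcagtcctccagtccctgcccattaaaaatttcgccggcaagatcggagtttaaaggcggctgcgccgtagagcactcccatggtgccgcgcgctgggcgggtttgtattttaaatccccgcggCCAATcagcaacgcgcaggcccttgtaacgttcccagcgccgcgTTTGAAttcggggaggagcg
Cdc20, chr4:118437294-118437593, minus strand: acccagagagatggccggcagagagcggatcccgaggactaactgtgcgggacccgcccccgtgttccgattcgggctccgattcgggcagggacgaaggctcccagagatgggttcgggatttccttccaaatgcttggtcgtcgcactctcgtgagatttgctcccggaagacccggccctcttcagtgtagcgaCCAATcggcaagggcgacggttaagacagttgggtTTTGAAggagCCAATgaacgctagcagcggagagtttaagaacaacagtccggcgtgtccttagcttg
Cenpf, chr1:189688037-189688336, minus strand: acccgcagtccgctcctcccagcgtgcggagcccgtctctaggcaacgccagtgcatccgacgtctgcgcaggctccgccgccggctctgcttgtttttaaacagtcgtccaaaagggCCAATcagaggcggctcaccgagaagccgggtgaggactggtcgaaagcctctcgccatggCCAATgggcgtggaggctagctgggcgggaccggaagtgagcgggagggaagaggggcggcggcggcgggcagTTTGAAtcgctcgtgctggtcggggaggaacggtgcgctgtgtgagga
Ccnb1, chr13:100786437-100786736, minus strand: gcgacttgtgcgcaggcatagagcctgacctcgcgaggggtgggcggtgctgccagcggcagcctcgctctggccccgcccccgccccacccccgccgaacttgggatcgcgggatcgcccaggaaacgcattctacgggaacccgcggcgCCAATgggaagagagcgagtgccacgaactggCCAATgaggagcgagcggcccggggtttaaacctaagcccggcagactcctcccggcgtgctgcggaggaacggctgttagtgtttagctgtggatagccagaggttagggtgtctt
The CHR letters begin 30 bases after the start of Plk1, 18 bases before the start of Cdc20 and 2 bases after the start of Cenpf. The Ccnb1 window holds 2 CCAAT boxes and no CHR match. In the windows not printed, the letters begin 32 bases after the start of Aurka (chr2:172370521-172370820, minus strand) and 24 bases after the start of Cep55 (chr19:38054734-38055033, plus strand). A match of letters is a description, not a site or a cause.

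The 6 genes of the score were found together in most of the chosen wells. All 6 had at least 1 UMI in 232 of 264 mitotic wells and in 327 of 2380 other wells. Ccnb1, which encodes cyclin B1, was present in 263 mitotic wells with a median of 5.59 UMIs per 10000 UMIs, against 1458 other wells and a median of 0.65. Cep55, a factor of the midbody, was the most sparsely seen of the 6, with 245 mitotic wells and a median of 1.25 UMIs per 10000. Summed over the mitotic wells of a plate, Aurka lay within a narrow range of 198.3 to 242.3 CPM (UMIs scaled to a common library total) over the 10 plates with at least 5 mitotic wells, and Plk1 within 253 to 336 CPM. Cenpf spread more widely, from 256 CPM in double mutant replicate 1 to 526 CPM in Rev1 knockout replicate 1. The plot of scores shows the range of the wells of each plate.

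**Figure D1:**
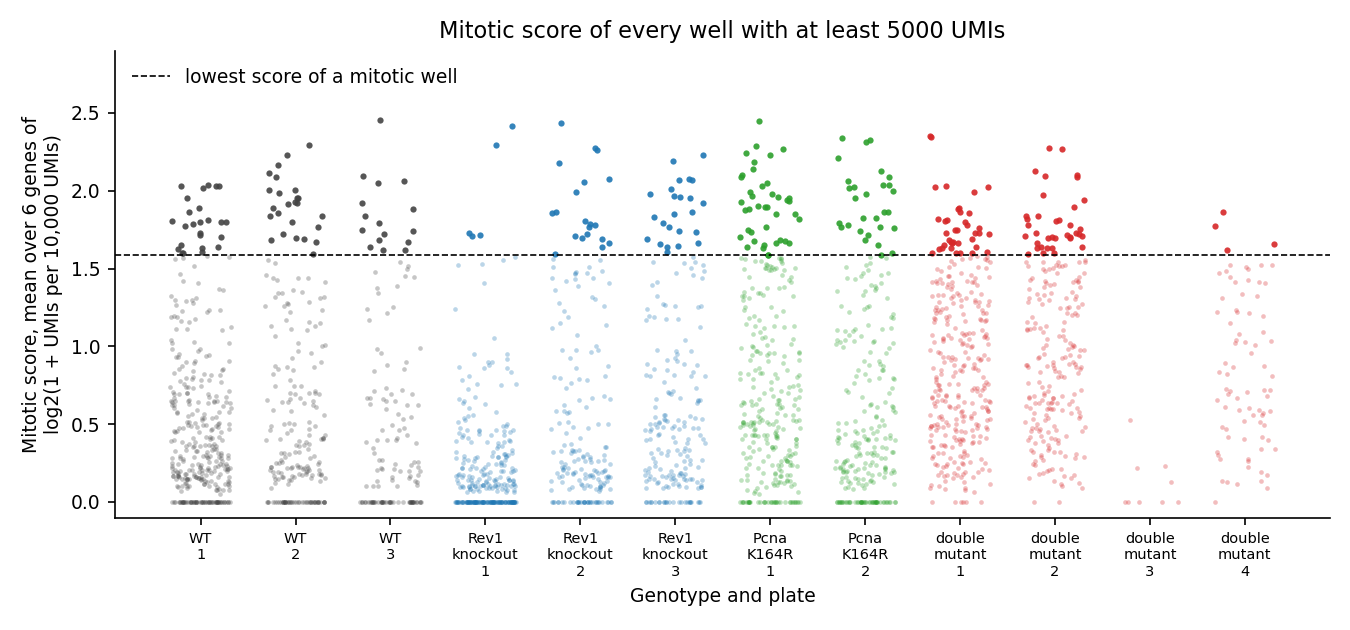
Mitotic score of every well with at least 5000 UMIs, by genotype and plate (dots, 1 per well; vertical axis, mean over 6 genes of log2(1 + UMIs per 10000 UMIs)), with the lowest score of a mitotic well, 1.58, as a dashed line and mitotic wells in full colour. Scores run without a gap through the line on the plates with many wells, 5 wells of Rev1 knockout replicate 1 and none of double mutant replicate 3 lie above it, and the double mutant plates other than replicate 3 have few wells at 0.

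The choice depended on depth to some extent. Mitotic wells held more UMIs than other wells on 9 of 10 plates (median ratio 1.26, range 0.96 to 2.24) and more UMIs per ERCC molecule on 10 of 10 (median ratio 1.25). The mitochondrial share was alike (median ratio 0.97), and so was the number of genes seen after each well was thinned to 5000 UMIs (median ratio 1.02). When wells were ranked again after thinning to 5000 UMIs, 187 of the 264 wells (70.8%) were chosen again. Ranking by other mitotic genes in place of the 6 chose 170 of them (64.4%). Wells with both Xist and Y-linked transcripts, possible only where a plate holds both sexes, were 1 of 264 mitotic and 21 of 2380 other wells. Both sexes occurred on double mutant replicates 1 and 2 alone. There such wells were 0 of 38 and 1 of 37 mitotic wells, and 11 of 290 and 10 of 201 other wells. No caller of doublets was run. The names of the wells were the same on every plate.

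The mutated genes were checked in these wells first. Rev1 gave 5, 5 and 4 UMIs in the mitotic wells of WT replicates 1 to 3, 2, 0 and 1 in the Rev1 knockout, 17 and 8 in Pcna K164R, and 3, 3 and 0 in double mutant replicates 1, 2 and 4. These counts are too few to check a label. In the other wells Rev1 stood at 11.1 to 21.9 CPM in WT and at 10.75 and 7.41 CPM in Pcna K164R, whose label leaves Rev1 intact. It stood at 1.58 to 5.97 CPM in the Rev1 knockout and at 1.19 and 2.62 CPM in double mutant replicates 1 and 2. The library labelled double mutant replicate 4 stood at 15.2 CPM, inside the WT range, and it goes against its label in this gene. Its 4 mitotic wells entered the shares but not the gene tests, which required at least 5 mitotic wells. The K164R change leaves the Pcna transcript in place and cannot be checked from expression. Total depth ran from 209198 to 1591702 UMIs over the mitotic wells and from 2063251 to 10052900 UMIs over the other wells of the 10 plates tested.

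The first question was whether the share of mitotic wells differed between genotypes. In WT, 25 of 361 (6.93%), 25 of 218 (11.5%) and 16 of 140 wells (11.4%) were mitotic. In the Rev1 knockout they were 5 of 296 (1.69%), 20 of 193 (10.4%) and 24 of 206 (11.7%), and in Pcna K164R 41 of 315 (13.0%) and 29 of 259 (11.2%). In the double mutant they were 38 of 328 (11.6%), 37 of 238 (15.5%), 0 of 9, and 4 of 81 (4.94%). The ranges of the 4 genotypes overlapped. Exact 95% binomial intervals, which cover counting error only, reached from 0.55% to 3.90% in Rev1 knockout replicate 1 and from 11.2% to 20.8% in double mutant replicate 2. For double mutant replicate 3 a count of 0 among 9 wells allows a share of up to 33.3%, and it was left out of the means.

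The mean share was 9.94% ± 2.61 (SD, n = 3) in WT, 7.90% ± 5.42 (n = 3) in the Rev1 knockout, 12.1% ± 1.29 (n = 2) in Pcna K164R and 10.7% ± 5.36 (n = 3) in the double mutant. No difference was larger than the spread between plates. The double mutant differed from WT by 0.75 percentage points (two-sided exact permutation test over plates, p = 0.8), the Rev1 knockout from WT by -2.04 (exact p = 0.7) and Pcna K164R from WT by 2.17 (exact p = 0.6). The double mutant differed from the Rev1 knockout by 2.79 points (exact p = 0.6) and from Pcna K164R by -1.42 (exact p = 0.9). All 5 comparisons had a Benjamini-Hochberg adjusted p of 0.9, and the smallest p these group sizes allow is 0.1, so the design could not reach 0.05. Leaving out double mutant replicate 4, the library that goes against its label, put the double mutant 3.63 points above WT, 5.67 above the Rev1 knockout and 1.46 above Pcna K164R.

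Sessions did not give the same order. In session 1 the share was 6.93% in WT (1 plate), 12.1% in Pcna K164R (mean of 2) and 13.6% in the double mutant (mean of 2). In session 3 it was 11.4% in WT (mean of 2), 11.0% in the Rev1 knockout (mean of 2) and 4.94% in the double mutant (1 plate). The double mutant plates thus lay above WT in session 1. The plate below WT in session 3 is the library labelled double mutant replicate 4, whose Rev1 level goes against its label. Session 2 held a single plate with enough wells, and its share of 1.69% was the lowest of all. Without Rev1 knockout replicate 1 the Rev1 knockout stood 1.07 points above WT.

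**Figure D2:**
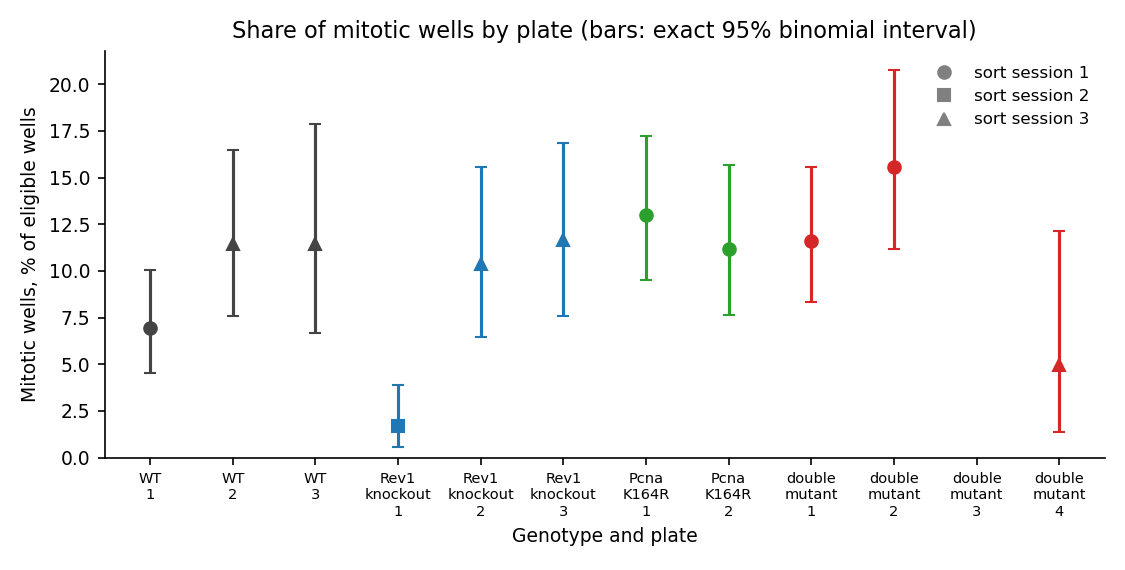
Share of mitotic wells among wells with at least 5000 UMIs on each plate (vertical axis, %; symbols, sort sessions; bars, exact 95% binomial interval of each plate); double mutant replicate 3, with 0 of 9 wells, is not drawn. Rev1 knockout replicate 1 at 1.69% and double mutant replicate 4 at 4.94% are the lowest, double mutant replicate 2 at 15.5% is the highest, and the genotypes overlap.

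Below the boundary the double mutant plates looked different. Wells scoring from 1 up to the boundary were 31.1%, 30.3% and 34.6% of the wells of double mutant replicates 1, 2 and 4. They were 9.70%, 15.1% and 9.29% in WT, 2.36%, 13.5% and 12.6% in the Rev1 knockout and 63 of 315 and 46 of 259 wells in Pcna K164R, so the double mutant plates with over 9 wells lay above all 8 plates of the other genotypes. Wells with a score of 0 were 0.84% to 1.83% on these 3 plates and 11.4% to 39.2% on the 8 others, and at 5000 UMIs per well 12.2% to 23.5% and 27.3% to 61.8%. These plates also had the most UMIs per well, with medians of 27283 to 38169 against 10155 to 23312 on the 8 others, and at 5000 UMIs per well the share between 1 and the thinned boundary was 16.2%, 20.2% and 12.3%, against 6.93% to 11.0% in WT, 8.74% or less in the Rev1 knockout and 12.1% and 10.04% in Pcna K164R. Taking the highest 20% of wells in place of 10% gave 28.0%, 34.0% and 23.5% in the double mutant, 11.6%, 20.6% and 17.9% in WT, 3.38%, 20.7% and 19.9% in the Rev1 knockout, and 25.7% and 20.1% in Pcna K164R. At that boundary the double mutant was 11.80 points above WT (exact permutation p = 0.1, the smallest possible), and its plates did not overlap with those of WT. That value counts replicate 4, the library that goes against its label in Rev1, and was not computed without it. Replicates 1 and 2 share a session only with WT replicate 1, the lowest WT plate at 11.6%. The part of depth in the higher double mutant shares was not tested beyond the thinned values.

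Ccnb1 is given as a description of the same score, to which it belongs. It stood at 267, 243 and 201 CPM in the other wells of double mutant replicates 1, 2 and 4, at 95.05, 109 and 99.4 CPM in WT, at 45.9, 105 and 115 CPM in the Rev1 knockout and at 178 and 163.97 CPM in Pcna K164R. In the mitotic wells it was 609, 515 and 449 CPM in these double mutant plates and 477, 614 and 565 CPM in WT. The 2 genotypes overlapped in the mitotic wells, where the common boundary ties its level, and were apart in the other wells.

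The next question was how mitotic wells differed from other wells beyond the genes that chose them. Because the rule chose the wells from these cells, the differences are described without a test. A gene counts as set apart when its log2 ratio of mitotic to other wells, from CPM summed per plate with a prior count of 1, had the same sign on all 10 plates and a median of at least 0.5 either way. Of 8735 genes with a mean of at least 10 CPM, 241 (2.76%) were set apart as higher and 320 (3.66%) as lower, and the median over all genes was -0.02.

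Summed counts cannot tell fewer cells of a type from less RNA per cell. The widest differences upwards lay in regulators of mitotic entry and the spindle. Fam64a led with 146.4 ± 28.7 CPM (SD, n = 10 plates) in mitotic wells and 28.5 ± 7.54 CPM in other wells, a median log2 ratio of 2.44. It was followed by Cdkn3 (2.43), a phosphatase of cyclin-dependent kinases, Cdc25b (2.37), which activates CDK1, and Aspm (2.24), a protein of the spindle poles. Pif1, a DNA helicase, had a ratio of 2.23, and Troap, Cdc25c and Prr11 had ratios of 2.15, 2.12 and 2.12. Ube2c, the ubiquitin-conjugating enzyme of the APC/C, was the most abundant of these at 1041 ± 147 CPM against 254 ± 116 CPM (log2 ratio 2.09). Cenpf, Aurka and Ccnb1, which belong to the score, ranked among the 12 widest with 2.33, 2.20 and 2.18.

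Members of every stage of mitosis were higher, in unequal measure. Of 13 genes of mitotic entry, 11 were set apart as higher (median log2 ratio 1.10), with Ccnb2 at 2.05 and Ccnf at 1.63. Mybl2, a transcription factor that acts from late G1 onwards, was lower on 9 of 10 plates with a median of -1.29 and was not set apart. All 4 genes of the chromosomal passenger complex were higher (median 1.09), from Birc5 at 0.96 to Incenp at 1.16. Of 18 kinetochore genes 15 were higher (median 1.01), led by Cenpa (1.83) and Cenpe (1.79).

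Spindle and motor genes were higher in 15 of the 16 measured of 17 (median 1.63), among them Nusap1 at 386 ± 63.6 CPM against 93.8 ± 24.2 CPM, and Kif2c, a microtubule depolymerase, at a log2 ratio of 1.90. All 7 measured of 8 cytokinesis genes were higher (median 1.53), with Prc1, which bundles the central spindle, at 1.80 and Kif20a at 1.66. The spindle checkpoint had 4 of 9 higher (median 0.44): Bub1b, Bub3, Ttk and Bub1, at 0.98 to 1.298. The APC/C list had 5 of the 8 measured higher (median 0.76), and Pttg1, which encodes securin, had a ratio of 0.57. Of 7 centrosome genes 2 were higher, Nek2 (2.02) and Cdk5rap2 (0.53), while Plk4, which starts centriole duplication, had 0.28. Of 10 genes of condensin and chromosome structure 6 were higher, with Mki67 at 792 ± 161 CPM against 373 ± 113 CPM (1.05) and Top2a at 1.01.

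The genes of DNA replication went the other way. Of 37 measured genes of the list 31 were set apart as lower and none as higher, with a median of -0.93. The summed list stood at 23.8 to 43.2 UMIs per 10000 in mitotic wells and at 52.7 to 71.8 in other wells, lower on 10 of 10 plates without overlap. Ung, the uracil glycosylase that acts at replication forks, was lowest at 5.69 ± 2.75 CPM against 62.6 ± 17.5 CPM (log2 ratio -3.43). Cyclin E1 (Ccne1) had -2.48, the transcription factor E2f1 -2.16 and the licensing factor Cdc6 -1.68. Pcna itself stood at 191 to 509 CPM in mitotic wells and 526 to 1091 CPM in other wells of the 10 plates. At 5000 UMIs per well, 4.55% of mitotic and 36.6% of other wells lay in the third of all wells with the highest replication list, and the share was lower in mitotic wells on 10 of 10 plates. Mitotic wells with many replication transcripts were therefore few.

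Checkpoint and arrest genes were mixed. Clspn (-0.94), Atm (-0.82) and Chek1 (-0.81) were the 3 of 10 genes of the G2 checkpoint list set apart, all lower. Cdkn1a, the p53 target that encodes p21, was lower (-1.45), as was Bax (-0.75) and Gadd45a (-0.56), while Gtse1, a p53 target that is also a G2 gene, was higher (1.10). The other p53 targets measured, 16 of 20, were not set apart, and the summed list was higher in mitotic wells on 6 of 10 plates. Cdkn1a rests on few UMIs, with 5, 0 and 0 in the mitotic wells of WT replicates 1 to 3. The inhibitors Cdkn2d (0.88) and Cdkn1b (0.85) were higher, as were the histone variants H2afx (1.42) and H2afv (0.71). In the list of DNA damage tolerance, Smarcal1, a fork-remodelling helicase, was higher (0.60) and Mad2l2, a subunit of polymerase zeta, was lower (-0.56).

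**Figure D3:**
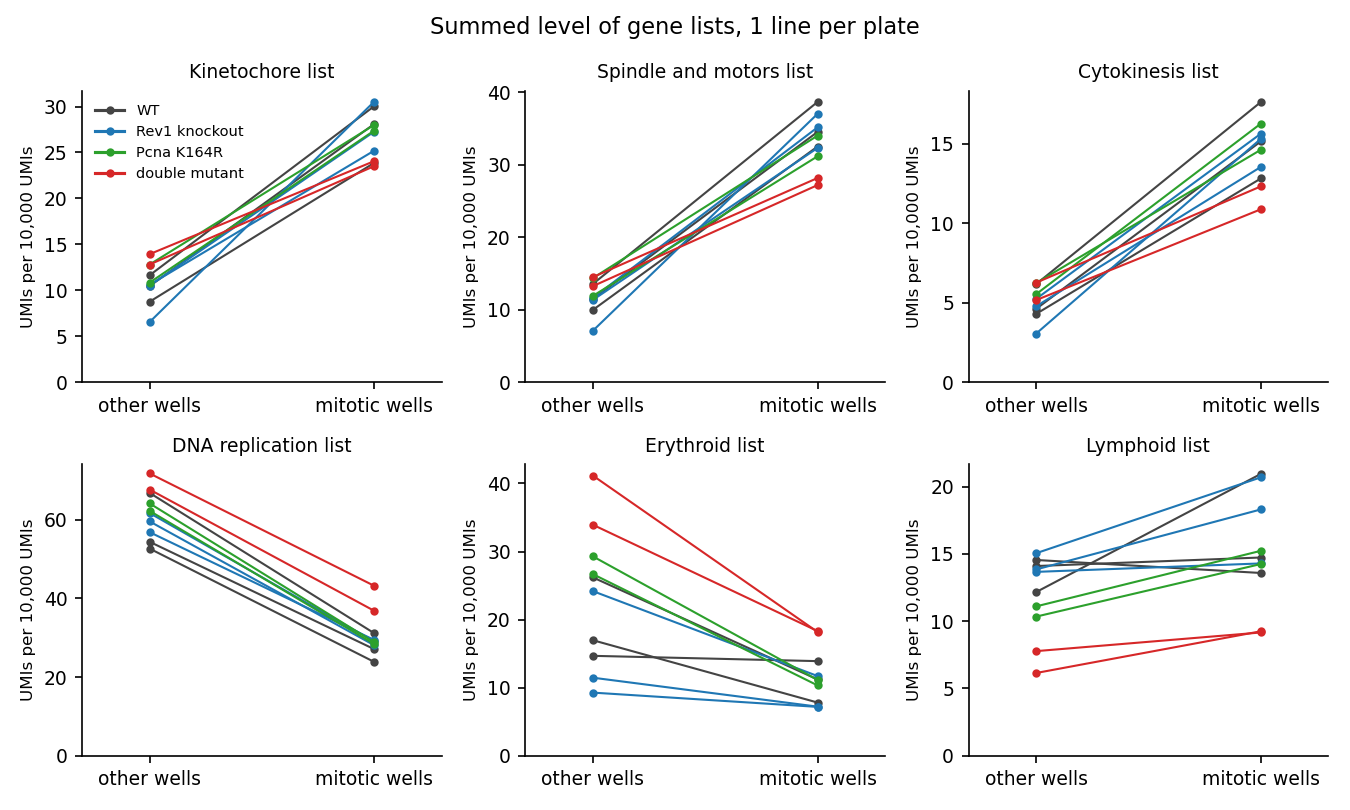
Summed level of 6 gene lists in other and mitotic wells (vertical axes, UMIs per 10000 UMIs, each from 0; 1 line per plate for the 10 plates with at least 5 mitotic wells; colours, genotypes). The kinetochore, spindle and cytokinesis lists are higher and the replication list is lower in mitotic wells on all 10 plates, the erythroid list is lower on all 10, and the lymphoid list is higher on 9 of 10.

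The genes with the widest differences downwards included erythroid and macrophage genes. Of 20 erythroid genes 15 were set apart as lower (median -2.46), among them Mt2 (-4.96), a metallothionein kept in that list, the erythroid transcription factor Klf1 (-4.00), Rhd (-3.68) and Add2 (-3.62). Of the 7 measured macrophage genes 5 were lower (median -3.41), including C1qa (-3.79), a complement component made by macrophages. Clec4f (-4.49), a receptor of Kupffer cells, Epdr1 (-4.16), Col5a1 (-4.10), Cldn13 (-3.82), Fcna (-3.68), Sdc3 (-3.63) and Atp1b2 (-3.60) completed the 12 lowest. Several of these rest on few UMIs: Clec4f stood at 1.05 ± 2.43 CPM in mitotic wells. The 12 genes spread widely between plates, Klf1 from -5.72 to -0.88. Beyond these 12, the mast cell and basophil list had the lowest median of all lists (-3.74 over 6 measured genes). Its sum was higher in mitotic wells on 0 of 10 plates. Of its genes 1 was set apart, Hdc as lower (-3.59), at 9.68 ± 8.70 CPM against 92.7 ± 80.2 CPM.

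Counts of wells were also taken at 5000 UMIs. Klf1 was detected in 10 of 264 mitotic wells (3.79%, exact 95% interval 1.83% to 6.86%) and in 13.3% of other wells, and at least 2 UMIs of C1qa, C1qb and C1qc together in 2 mitotic wells (0.76%) and 7.73% of other wells. Without thinning, the summed megakaryocyte list was higher in mitotic wells on 9 of 10 plates (median log2 ratio 0.13). Of its 6 measured genes 1 was set apart, as higher. Pf4, a platelet gene, went the other way at 5000 UMIs, in 0.76% of mitotic and 4.03% of other wells. The erythroid list as a whole differed less: 29.9% of mitotic and 38.1% of other wells lay in the third of wells highest in it, and on 3 of 10 plates the share was higher in mitotic wells. Hlf, Flt3 and Kit were detected about equally often: Hlf in 67.0% of mitotic and 63.9% of other wells, Flt3 in 47.3% and 48.2%, and Kit, the sorted receptor, in 76.5% and 75.8%. Ly6a, which encodes Sca-1, was detected less often in mitotic wells on 7 of 10 plates and more often on 3. Its share ran from 0% to 35.0% of mitotic and from 12.9% to 42.3% of other wells. The summed sort antigen list was higher in mitotic wells on 10 of 10 plates (median log2 ratio 0.28). None of the stem cell, granulocyte-monocyte and sort antigen lists had a gene set apart, and no hepatocyte gene passed 10 CPM. Granulocyte transcripts lay in few wells: 3 mitotic wells held over 100 UMIs per 10000 of that list, 472 and 442 on WT replicate 3 and 395 on double mutant replicate 1. Mpo had the largest ratio of variance to mean among the genes examined over the mitotic wells, 25.6, against 1.67 for Pcna and 1.89 for Mki67.

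The lymphoid list leaned upwards, with a sum higher on 9 of 10 plates and a median log2 ratio of 0.35, but 1 of its 11 measured genes was set apart. Flt3, of the same list, was detected more often in mitotic wells on 4 of 10 plates. Satb1, a chromatin organiser of lymphoid priming, was the member of the list set apart as higher (0.71; 222 ± 93.8 CPM against 144 ± 57.1 CPM), and 45.5% of mitotic against 34.8% of other wells lay in the third of all wells with the highest lymphoid list, more on 10 of 10 plates. Wells with at least 2 UMIs of the pre-B genes Cd79a, Igll1 and Vpreb3 were 11 of 264 (4.17%) among mitotic and 20 of 2380 (0.84%) among other wells. Of these 31 wells 35.5% were mitotic. They were not spread evenly, since 6 of the 11 came from double mutant replicate 1.

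The promoters of the genes that went with the score shared the CHR more often than others. A RefSeq window was found for 6665 of the 8735 genes. The CHR letters were present in 48.1% of 185 windows of genes set apart as higher, in 10.7% of 6228 windows of genes not set apart and in 9.13% of 252 windows of genes set apart as lower, and in 18.1% of all 27025 windows of the table. Without the score genes the first share was 46.9% of 179. It was 64.4% of 87 for a median ratio of at least 1 and 33.7% of 98 below that. A match within 40 bases of the start was present in 31.9% of windows of higher genes and 2.02% of those not set apart.

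CCAAT boxes were in 57.8% of windows of higher genes, 38.7% of those not set apart and 37.9% of all windows, and both elements together in 34.1% and 4.35%. The E2F letters TTTCCCGC or TTTGGCGC, on either strand, were in 34.6% of the 26 windows of replication genes set apart as lower, 2.70% of windows of higher genes and 3.44% of those not set apart. Windows without a match say only that these letters are not there.

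**Figure D4:**
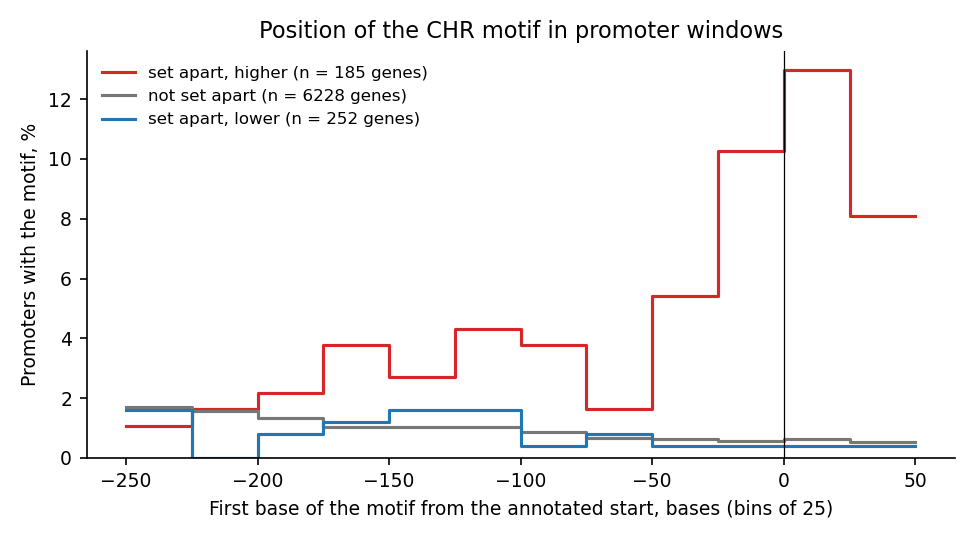
Share of promoter windows whose CHR letters begin in each bin of 25 bases (horizontal axis, bases from the annotated gene start; vertical axis, % of windows; lines, genes set apart as higher, not set apart and set apart as lower in mitotic wells). Matches in the 185 windows of higher genes gather from 50 bases before to 50 bases after the start, where 6228 windows of genes not set apart and 252 of lower genes stay below 1% a bin.

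The last question was whether mitotic wells of different genotypes differed in gene expression. UMIs were summed over the mitotic wells of each of 10 plates and tested with edgeR's quasi-likelihood test with the sort session as a covariate and Benjamini-Hochberg adjustment over 8691 genes. The double mutant entered with replicates 1 and 2 (75 wells), WT with 66 wells, the Rev1 knockout with 49 and Pcna K164R with 70. Rev1 knockout replicate 1 was the only tested plate of session 2, so the session term absorbed it. The fitted changes of the Rev1 knockout rest on its replicates 2 and 3. Between the double mutant and WT 12 genes passed an adjusted p of 0.05 (0.138% of those tested), 1 higher (0.0115%) and 11 lower (0.127%). The double mutant plates share a session only with WT replicate 1, so this comparison rests on that plate and no value without it could be fitted. WT replicate 1 was also the only plate on its sequencing flow cell. With the session as covariate, genotype and flow cell therefore cannot be told apart in this comparison. Leaving out either double mutant plate left no gene past the threshold. The count was 19 and 80 without WT replicates 2 and 3, 6 and 7 without Rev1 knockout replicates 2 and 3, and 43 and 42 without Pcna K164R replicates 1 and 2.

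Flt3, a receptor tyrosine kinase found on multipotent cells with lymphoid potential, fell in mitotic wells of the double mutant. It stood at 369, 246 and 233 CPM in WT, 244, 255 and 214 in the Rev1 knockout, 201 and 302 in Pcna K164R, and 66.8 and 69.1 in the double mutant. Both double mutant plates lay below every other plate. The log2 change against WT was -2.50 ± 0.28 (SE; edgeR adjusted p = 0.0082), and 45 of 75 double mutant wells held a UMI against 53 of 66 in WT. The 4 mitotic wells of double mutant replicate 4, outside the fit, stood at 73.0 CPM.

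Satb1 fell with it, from 292, 200 and 203 CPM in WT to 67.4 and 76.0 CPM in the double mutant (-2.09 ± 0.29, edgeR adjusted p = 0.0154). It stood at 272, 339 and 303 CPM in the Rev1 knockout and 183 and 284 CPM in Pcna K164R. Trim30a, an interferon-stimulated gene, stood at 126, 200 and 168 CPM in WT and 39.4 and 40.8 CPM in the double mutant (-1.71 ± 0.28, edgeR adjusted p = 0.0312). Zfp608 and Gm1966 fell by 2.00 and 2.24 on the log2 scale. Wfdc17 fell from 27, 10 and 7 UMIs to 3 and 5 UMIs at several-fold greater depth (-4.34 ± 0.60, edgeR adjusted p = 0.0154). For Flt3, Satb1, Zfp608 and Wfdc17 the adjusted p rose above 0.05 with the flow cell in place of the session as covariate, to 0.0693 for Flt3. The log2 changes were then -1.54, -1.05, -1.54 and -3.15. WT replicate 1 is alone on its flow cell, so the flow cell term absorbs it. With that term, changes against WT rest on WT replicates 2 and 3, which share no flow cell with the double mutant plates tested.

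Several other calls rested on few wells. H2-Aa, an MHC class II gene of mature antigen-presenting cells, had 85 UMIs in WT replicate 1, of which 80 came from 1 well. Mpeg1, a macrophage gene, had 98.1 CPM in WT replicate 1, with 30 of 50 UMIs in 1 well, and 6.46 and 14.96 CPM in WT replicates 2 and 3. With the flow cell as covariate both reversed, to log2 changes of 0.87 and 0.63. Ccr9, a chemokine receptor of lymphoid progenitors, stood at 90.3, 25.8 and 26.9 CPM in WT and 13.4 and 8.80 CPM in the double mutant (-3.08 ± 0.39, edgeR adjusted p = 0.0115), and the change was -0.02 with the flow cell. In WT replicate 1, 25 of its 46 UMIs lay in 1 well. Ccl4, a chemokine, was not of this kind. It had 34, 11 and 4 UMIs in WT and 1 and 4 in the double mutant (edgeR adjusted p = 0.0115). At most 8 of the 34 lay in 1 well. Ccl4 also passed with the flow cell (edgeR adjusted p = 0.0301), where WT rests on the plates with 11 and 4 UMIs.

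Asns, asparagine synthetase, was the gene that rose. It stood at 11.8, 12.9 and 23.9 CPM in WT, 28.7, 38.6 and 20.3 in the Rev1 knockout, 31.6 and 43.5 in Pcna K164R, and 127 and 114 in the double mutant (3.27 ± 0.56, edgeR adjusted p = 0.0475). It was present in 58 of 75 double mutant and 12 of 66 WT wells, with 77 of 191 and 56 of 181 UMIs in 1 well of each double mutant plate, and WT replicate 1, the plate of the same session, had the lowest value. With the flow cell as covariate its change was 3.03 with an adjusted p of 0.0533.

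The levels of the 6 score genes in these wells are tied to the boundary of the score, which was the same for all genotypes. Other mitotic genes went with the score, and how far the boundary sets their level was not tested, so nothing is read from either. None of the 6 score genes, 13 entry, 18 kinetochore, 17 spindle or 8 cytokinesis genes passed in the double mutant against WT, with list medians between -0.49 and -0.07 beside a median of -0.01 for all genes. Of 13 lymphoid genes 3 fell (median -1.26), Flt3, Satb1 and Ccr9. No replication gene passed, and 30 of 34 lay above 0 (median 0.49). No erythroid gene passed either (median 1.67, 13 of 16 above 0), and the erythroid list summed to 18.3 UMIs per 10000 or less in each plate. Of 27 interferon-stimulated genes 1 fell, Trim30a (median -1.84, 1 of 27 above 0). Cdkn1a stood at 9.81, 0 and 0 CPM in WT, 0, 11.8 and 4.06 in the Rev1 knockout, 30.1 and 5.61 in Pcna K164R, and 46.1 and 39.6 in the double mutant. The change against WT was 2.04 ± 0.91 (edgeR adjusted p = 0.327), and 41 of 75 double mutant against 4 of 66 WT wells held a UMI at unequal depth. At 5000 UMIs per well it was detected in 9 of 38 and 3 of 37 mitotic wells of double mutant replicates 1 and 2 and in 1 of 66 of WT, and in 75 of 290 and 54 of 201 other wells of these plates and 41 of 653 of WT.

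Few genes passed in the single mutants against WT within mitotic wells. In the Rev1 knockout 1 gene passed (0.0115%), Tmsb10, an actin-binding thymosin, at 803, 890 and 1027 CPM against 828, 216 and 296 CPM in WT (1.93 ± 0.25, edgeR adjusted p = 0.0308). That change rests on replicates 2 and 3 of both genotypes, which share session 3. WT replicate 1 lay in the range of the knockout, and without the session term the change was 1.00 with an adjusted p of 0.512. No gene passed without Rev1 knockout replicate 3 or double mutant replicate 2, and 17, 11 and 11 passed without WT replicate 2 and Pcna K164R replicates 1 and 2. Counts without WT replicate 3, Rev1 knockout replicate 2 and double mutant replicate 1 were 6, 2 and 2. For Pcna K164R against WT edgeR called 0 genes (0%), with 449 at an unadjusted p under 0.05, and DESeq2 called 2. Without WT replicate 3, Rev1 knockout replicate 2 and Pcna K164R replicate 1 the counts were 2, 1 and 6. WT plates carried Y-linked transcripts and Rev1 knockout plates carried Xist, so sex and genotype cannot be told apart between the Rev1 knockout and WT. The Pcna K164R plates share a session only with WT replicate 1, so their comparison with WT rests on that plate. It could not be fitted without that plate, and genotype and flow cell cannot be told apart in it. Its count of 0 genes therefore does not show that the 2 genotypes were alike.

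Against Pcna K164R, which shares session 1 with it, the double mutant had 8 genes past the threshold (0.092%), 4 in each direction (0.046%). Flt3 (-1.84 ± 0.24) and Satb1 (-1.65 ± 0.25) fell here too, in a comparison that shares the double mutant plates with the one above. Acot1, an acyl-CoA thioesterase, fell from 88.6 and 71.6 CPM to 17.4 and 25.1 CPM (-1.88 ± 0.30, edgeR adjusted p = 0.0476). The 4 genes that rose were erythroid-associated, 4 of the 16 tested of that list (median 2.66). Blvrb, a biliverdin reductase, rose from 6.16 and 4.21 CPM to 71.4 and 61.6 CPM (3.62 ± 0.47, edgeR adjusted p = 0.0222). Mt2 rose by 4.27 ± 0.69 and Tfrc, the transferrin receptor, by 1.44 ± 0.24. Klf1 had 2 and 1 UMIs in Pcna K164R and 107 and 110 in the double mutant (edgeR adjusted p = 0.0338), in 24 of 75 wells. A single well of each double mutant plate held a large part of these UMIs: 61 of 107 and 64 of 110 for Klf1, 212 of 454 and 212 of 416 for Mt2, 53 of 107 and 40 of 98 for Blvrb, and 100 of 244 and 96 of 282 for Tfrc. Without double mutant replicate 1 or 2 no gene passed, and without Pcna K164R replicate 2 and WT replicate 3 the counts were 1 and 25.

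**Figure D5:**
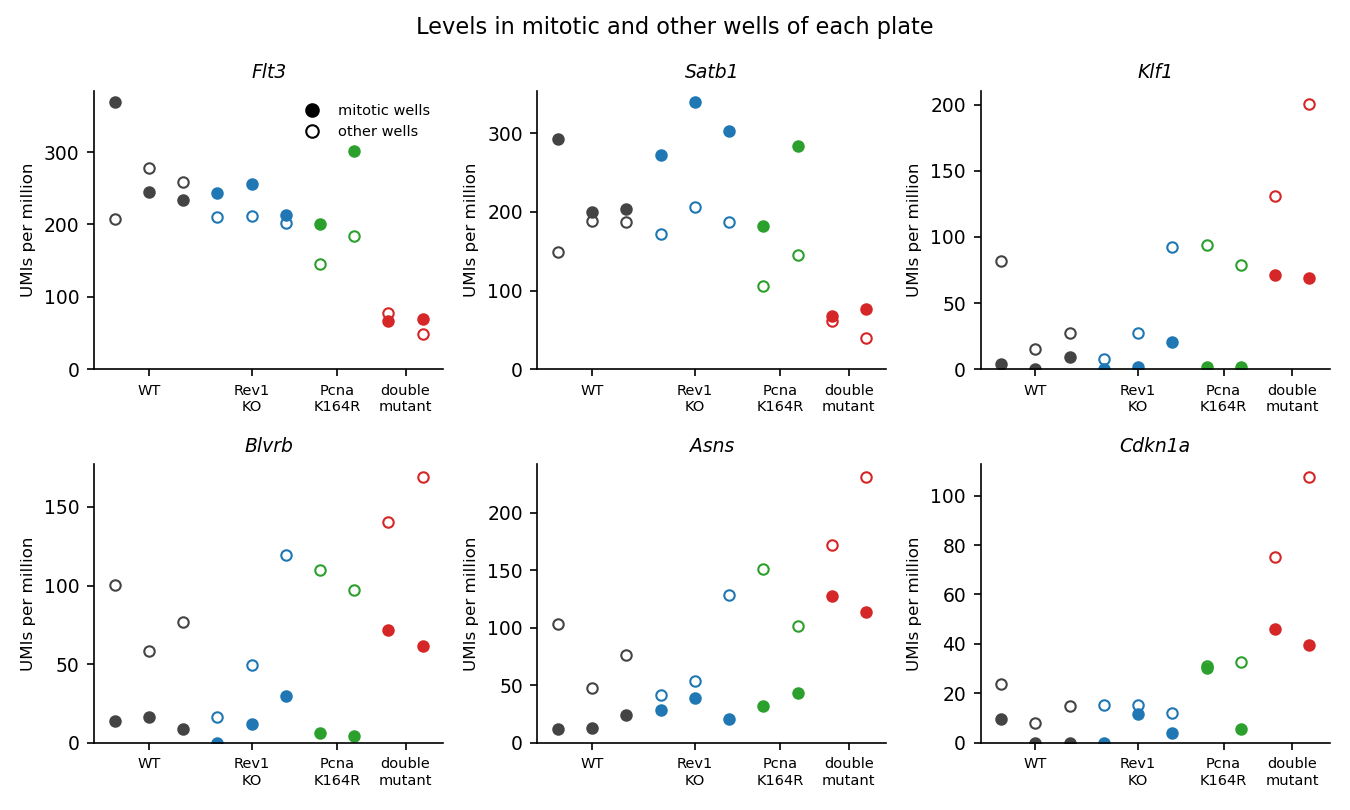
Levels of 6 genes in mitotic (filled) and other wells (open) of the 10 plates with at least 5 mitotic wells, grouped by genotype (vertical axes, CPM, each from 0). Flt3 and Satb1 lie lowest in both kinds of double mutant wells, Klf1 and Blvrb lie above 60 CPM in double mutant mitotic wells and at most at 29.8 CPM in those of other genotypes, and Asns lies at 127 and 114 CPM against 43.5 CPM or less.

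Against the Rev1 knockout 10 genes passed (0.115%), 9 lower (0.104%) and 1 higher in the double mutant. The tested plates of these genotypes share no session, so the adjustment runs only through WT. Rev1 knockout replicate 1, alone in its session, does not enter the fitted changes, though its values are printed. Ccr9 (-4.86 ± 0.53), Satb1 (-2.80 ± 0.39) and Flt3 (-2.51 ± 0.38) were lower. Irf8, a transcription factor of monocytes and dendritic cells, was among them, at 0, 119 and 237 CPM in the Rev1 knockout and 12.7 and 37.7 CPM in the double mutant. Mpeg1, Wfdc17, Tmsb10, H2-Aa and Nfil3 were the others. Ccr9 had 60 of its 62 UMIs in Rev1 knockout replicate 3 in 1 well. Grb10, an imprinted adaptor of growth-factor receptors, was higher, at 192 and 191 CPM against 9.56, 70.5 and 55.5 CPM (2.36 ± 0.39, edgeR adjusted p = 0.0424), and was present in 68 of 75 against 21 of 49 wells. Without WT replicate 3 or Pcna K164R replicates 1 and 2 the counts were 18, 23 and 23, without Rev1 knockout replicates 2 and 3 they were 4 and 1, and without double mutant replicates 1 and 2 they were 1 and 3.

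Finally, the difference between genotypes was compared between mitotic and other wells of the same plates, with the plate as a block, by edgeR over 11053 genes. For Flt3, Satb1 and Asns no such difference passed the threshold, and in the other wells too the double mutant lay lowest for Flt3 and Satb1 and highest for Asns. In other wells Flt3 stood at 78.0 and 48.1 CPM in the double mutant against 207 to 278 CPM in WT. For the double mutant against WT 3 genes passed (0.0271%), 2 of them lower (0.0181%). Mt2 was higher by 2.37 ± 0.42 on the log2 scale: mitotic and other wells differed less in the double mutant, with 303 and 261 CPM against 894 and 962 CPM, than in WT, with 56.9, 3.23 and 8.98 CPM against 697, 157 and 361 CPM. Ccnb2 and Psrc1 had differences of -1.41 ± 0.23 and -1.40 ± 0.25. Both are mitotic genes outside the score that were set apart with it. How far the common boundary sets their level in mitotic wells was not tested. Their other wells were higher in the double mutant (Ccnb2 205 and 189 CPM against 81.9 to 105 CPM in WT), as those of Ccnb1 were above, so they are given as a description. Without Rev1 knockout replicate 1 the count was 27, without WT replicate 1 or double mutant replicate 2 it was 0, and without WT replicate 2 or double mutant replicate 1 it was 1.

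Against Pcna K164R 15 genes passed (0.136%), of which 14 were higher (0.127%), and 6 of the 20 erythroid genes were among them (median 2.32). Mt2 differed by 3.58 ± 0.42, Blvrb by 3.03 ± 0.38, Ermap, a red cell membrane protein, by 2.55 ± 0.37 and Cited4 by 2.71 ± 0.43. As for Mt2 and Blvrb above, 1 well of each double mutant plate held 34 of 69 and 63 of 114 UMIs of Ermap and 39 of 93 and 43 of 91 of Cited4, and these genes were not tested without those wells. In other wells Blvrb stood at 110 and 97.3 CPM in Pcna K164R and 141 and 169 CPM in the double mutant, so the genotypes differed less there than in the mitotic wells. Klf1, with 3 UMIs in all mitotic wells of Pcna K164R, stood at 93.6 and 79.1 CPM in its other wells and at 131 and 201 CPM in those of the double mutant. The count was 5 without Pcna K164R replicate 1, 10 without Pcna K164R replicate 2 and 9 and 25 without double mutant replicates 1 and 2. On these double mutant plates 1 of 75 mitotic wells held both Xist and Y-linked transcripts, and the part of wells with more than 1 cell in this result was not tested.

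Against the Rev1 knockout 9 genes passed (0.0814%), 8 lower (0.0724%) and Tbxas1 higher by 1.95 ± 0.38. The 8 were Ccnb1, Ccnb2, Psrc1, Aurka, Knstrn, Tuba1c, Cenpa and Ect2. Ccnb1 and Aurka belong to the score and are tied to its boundary, and the others were set apart with it, like Ccnb2 and Psrc1 above. The count moved to 20 and 38 without WT replicates 2 and 3, to 29 and 27 without Rev1 knockout replicates 2 and 3, to 16 without either Pcna K164R plate and to 2 without either double mutant plate, and it was 6 without WT replicate 1. For the Rev1 knockout against WT 1 gene passed (0.00905%), Chi3l3, with 199 of its 201 UMIs in the knockout's mitotic wells in 1 well of replicate 3, and no gene passed without that plate. Without Rev1 knockout replicate 2 the count was 3. For Pcna K164R against WT edgeR called 0 genes (0%), 517 had an unadjusted p under 0.05, and DESeq2 called 0. The count was 1 without WT replicate 2 and 1 without Pcna K164R replicate 1.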

How the data were processed

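Single LSK cells were sorted into 384-well plates and sequenced by SORT-seq on a NextSeq 500, per the labels' protocols. BWA 0.7.15 and the builds GRCm38 and mm10 are named, per the submitters' processing notes; the counting tool is not given in the sources used here. The authors deposited, for each plate, counts of unique molecular barcodes per gene and well, which were used for every result, and expected counts of transcripts, which follow the collision formula for 4096 barcodes (largest gap 0.0052) and were rounded for an alternative. ERCC rows were left out of library sizes.

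Mitotic wells were scored and chosen over all plates as the report describes. The members and gene lists were chosen with earlier results of these data known. UMIs were summed per plate over mitotic and over other wells. Genotypes were compared within mitotic wells by edgeR 4.0.16 (R 4.3.3; quasi-likelihood, TMM, Benjamini-Hochberg, threshold 0.05) with the session as covariate, on plates with at least 5 mitotic wells and with 4 residual degrees of freedom. A second fit of both kinds of wells had the plate as a block and 6 residual degrees of freedom. DESeq2 1.42.0 was an alternative. Shares were compared on plates with at least 20 wells by exact permutation, coded directly in python 3.11.15. Exact binomial intervals came from scipy 1.17.1. Wells were thinned to 5000 UMIs with a fixed seed where shares of wells are compared. Fits were tested on simulated data. No plate was a copy of another of its genotype (chi-square per degree of freedom at least 7.57). No doublet caller was run.

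Genes were named by rule: up to 10 per direction with the smallest p past the threshold (3 where fewer passed), the 6 score genes, Rev1, Pcna and Cdkn1a, the 12 widest ratios in each direction between mitotic and other wells, and up to 4 members of each list. Genes singled out beyond that were chosen after their values were seen.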

Additional observations from a re-analysis of the deposited data

Results flagged for a closer look

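Double mutant replicate 3, with 9 wells and no mitotic well, stood apart from the other 3 double mutant plates in its other wells, with a median of 229 UMIs per ERCC molecule, a mitochondrial share of 1.29% and 747 genes per well at 5000 UMIs. Chance sets a plate apart by this measure in about 1 in 20 groups.

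The difference between genotypes differed between mitotic and other wells, by edgeR's quasi-likelihood test of that difference with Benjamini-Hochberg adjustment, for 3 genes in the double mutant against WT, 1 in the Rev1 knockout against WT, 9 in the double mutant against the Rev1 knockout and 15 in the double mutant against Pcna K164R. Against WT the log2 differences were 2.37 for Mt2, -1.41 for Ccnb2 and -1.40 for Psrc1. For Chi3l3 in the Rev1 knockout the adjusted p was 0.0268, from 1 well.

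Against the Rev1 knockout the log2 difference was 1.95 for Tbxas1. For the mitotic genes it was -1.58 for Ccnb2, -1.46 for Psrc1, -1.30 for Aurka, -1.39 for Knstrn, -0.97 for Tuba1c, -1.59 for Ccnb1, -1.14 for Cenpa and -1.01 for Ect2. Ccnb1 and Aurka belong to the score and are tied to its common boundary. How far the boundary sets the level of the others was not tested.

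Against Pcna K164R the log2 difference was 3.58 for Mt2, 3.03 for Blvrb, 2.55 for Ermap, 2.71 for Cited4, 2.64 for Mt1, 2.27 for Atp1b2 and -1.74 for Acot1. For genes with few UMIs in a group the adjusted p is given alone: 0.000279 for Klf1, 0.00304 for Col5a1, 0.00573 for Ccl5, of whose 71 UMIs in double mutant mitotic wells 64 lay in 1 well, and 0.0128 for Tnfaip2.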

How the results depend on the processing

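No paired analysis was possible because the labels number no replicates, and the numbers used here only name plates in accession order, so they pair no plates across genotypes. Comparisons are given in the order double mutant against WT, Rev1 knockout against WT, Pcna K164R against WT, double mutant against Rev1 knockout, double mutant against Pcna K164R. The share of mitotic wells changed the sign of its difference between double mutant and WT with the highest 5% of wells (-1.64 points), a minimum of 2000 (-1.35) or 10000 UMIs (-2.35), other mitotic genes (-0.58) and in session 3 alone (-6.51). Double mutant against Rev1 knockout changed sign with the highest 5% (-0.66), other mitotic genes (-0.78) and in session 3 (-6.07), Rev1 knockout against WT with other mitotic genes (0.20), and double mutant against Pcna K164R with the highest 20% (5.62), without the third of wells highest in the erythroid score (0.15) and in session 1 (1.46). Leaving out 1 plate gave -1.68 to 3.63, -3.91 to 1.07, 0.66 to 3.08, -0.32 to 5.67 and -3.84 to 1.46 points.

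Genes set apart numbered 95 higher and 95 lower with wells chosen and summed after thinning (89 and 61 shared) and 144 lower with the highest 10% of each plate (120 shared). They ranged from 233 to 277 higher and 318 to 381 lower leaving out 1 plate.

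Within mitotic wells the counts were 35, 13, 2, 19 and 4 with DESeq2, 268, 220, 31, 191 and 161 with no filter, 219, 1, 0, 62 and 0 with wells chosen after thinning, 426, 0, 0, 89 and 3 without session, 38, 11, 2, 26 and 3 with flow cell, and 0 to 80, 0 to 17, 0 to 6, 1 to 23 and 0 to 25 leaving out 1 plate. A minimum of 4 mitotic wells, chosen after seeing the data to admit double mutant replicate 4, gave 575, 1, 0, 191 and 6. For the difference between mitotic and other wells the counts were 11, 0, 0, 27 and 1 with DESeq2, 67, 45, 37, 95 and 75 with no filter, 27, 1, 0, 10 and 19 with at least 10 mitotic wells, 0, 0, 0, 11 and 2 after thinning, 18, 1, 0, 28 and 18 with at least 4, and 0 to 27, 0 to 3, 0 to 1, 2 to 38 and 5 to 25 leaving out 1 plate. H2-Aa and Mpeg1 reversed with flow cell (0.87 and 0.63), and Chi3l3 without Rev1 knockout replicate 3 (-0.32, against up to 6.41 without any other plate). With flow cell, WT replicate 1 is absorbed by that term and does not enter the fitted changes within mitotic wells. The cause of the changes between settings was not tested.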
